A study of Brassica carinata x Brassica rapa with 9 samples.

Results

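Among the 3 Anther libraries of a synthetic Brassica allohexaploid, a set of 200 genes stood highest in the second one (anther-2). Genes were first kept when their mean FPKM over the 3 Anther libraries was at least 10, which left 22293 of the 100804 genes measured. FPKM is the number of fragments on a gene scaled by the length of the gene and by the total of the library. These genes were then ranked by the ratio of anther-2 to the larger of anther-1 and anther-3, with 0.1 FPKM added to both, and the first 200 were taken. The members were thus chosen by the Anther FPKM values themselves. The levels of the members in Anther are given as a description without a test, and only Ovule against Leaf was tested. The ranking did not use the Ovule or Leaf values. The fit, however, took its estimate of the spread from all 9 libraries, so Anther values that the ranking used enter its p-values. The label of the set, a peak in anther-2, is fixed by the ranking itself.

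The plants were AABBCC allohexaploids from a cross of B. carinata and B. rapa. The parent roles are given in opposite ways by the sample labels and the study. RNA was sequenced from Anther (whole anthers, meiosis to pollen maturation), from Ovule (meiosis until the embryo sac is mature) and from young Leaf material, in 3 libraries each and 9 in all. The 3 Anther libraries carry 1 common stage range, so the labels do not say which part of that range each library holds. All groups share the hybrid genotype, the labels name no treatment, and the comparisons are between organs.

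An anther passes through a fixed order of events. Meiocytes first go through meiosis, in which chromosomes break, pair along a protein axis, synapse and form crossovers. The tapetum, the cell layer around the meiocytes, then makes sporopollenin, the polymer of the outer pollen wall. Work in Arabidopsis gave the order of the tapetum regulators, in which TDF1 acts before AMS, and AMS before MYB80 and the wall genes. Ovules also contain meiocytes, whereas young leaves contain neither meiocytes nor tapetum.

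The 9 libraries held 15077927 to 15527593 reads on genes in Anther, 15113774 to 15516180 in Ovule and 8675687 to 10154195 in Leaf. Anther-2 was the least like the other Anther libraries. Over all genes, Pearson's r of log2(FPKM + 1) was 0.934 between anther-2 and anther-1 and 0.960 between anther-2 and anther-3, against 0.971 between anther-1 and anther-3. The 3 Anther libraries also differed from each other more than libraries of the other tissues. The chi-square per gene between 2 libraries, for genes of at least 1000 reads in the pair, was 59.3 to 228 in Anther, 34.7 to 38.8 in Ovule and 1.65 to 1.99 in Leaf. Counting error alone would give about 1, so the Leaf libraries differed from each other by little more than counting error. Anther-2 was the highest Anther library for 11900 of the 22293 genes kept, which is 53.4%, against 6371 for anther-1 and 4022 for anther-3. A peak of at least 2-fold above both other libraries was found for 128 genes in anther-2, 170 in anther-1 and 57 in anther-3. Genes that peak in 1 Anther library were thus not found in anther-2 alone. A level at least 2-fold below both other libraries was found for 923 genes in anther-2, 377 in anther-1 and 23 in anther-3.

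The ratio of anther-2 to the larger other library ran from 1.89 to 69.2 among the members, with a median of 2.09, whereas the median over all genes kept was 1.02. It was at least 2 in 128 members and at least 3 in 10. The set thus holds a few steep peaks and a broad group near 2-fold, with no step at its edge. The last member inside had 23.8 FPKM in anther-2, 0.906 in anther-1 and 12.5 in anther-3, and the first gene outside had 39.1, 17.3 and 20.7, with a ratio of 1.89 for both. The set depended on both other libraries, since a ranking without anther-3 shared 56 of the 200 genes and one without anther-1 shared 99.

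The median level of the members was 29.3 FPKM in anther-2, 10.4 in anther-1 and 12.9 in anther-3. It was 3.71, 3.85 and 3.52 FPKM in the 3 Ovule libraries and 0.302, 0.281 and 0.317 FPKM in the 3 Leaf libraries. The order of the medians was thus Anther above Ovule above Leaf in every library. Most members were moderate in level, since 104 of the 200 were below 30 FPKM in anther-2, and 72 from 30 to 100. The 4 members of at least 1000 FPKM held 41.9% of the summed level of the set in anther-2. Together the members took 1.73% of the summed FPKM of anther-2, against 0.737% in anther-1 and 0.822% in anther-3. They took 0.210% in Ovule and 0.0970% in Leaf. In RNA from whole organs, fewer cells of a type and less RNA per cell cannot be told apart.

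**Figure D1:**
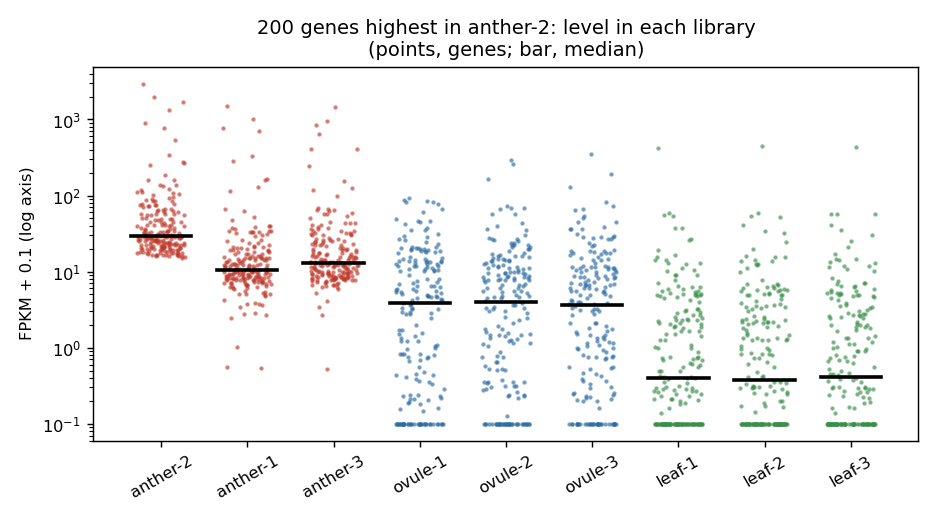
Level of the 200 members in each of the 9 libraries, as FPKM + 0.1 on a log axis, with 1 point per gene and a bar at the median. The medians are 29.3 FPKM in anther-2, 10.4 in anther-1 and 12.9 in anther-3, about 3.5 to 3.9 in Ovule and about 0.3 in Leaf, and points on the lowest line are genes at 0.

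Of the members, 6 are genes that the study names by identifier, and 5 of these act in meiosis. The files do not pair the other identifiers with gene names. The study drew its meiosis genes from those upregulated over Leaf in both Anther and Ovule, in these same libraries. A higher level in Ovule than in Leaf was thus a condition of their choice. The Ovule against Leaf p-values of these 5 members only describe the copies and are no independent test. Both ASY1 copies named by the study are members. ASY1 is a protein of the meiotic chromosome axis, along which homologues pair. The A-genome copy (Bra004222) had 57.3 FPKM in anther-2, 15.4 in anther-1 and 22.3 in anther-3. It had 0.644, 0.648 and 0.771 FPKM in Ovule, and 0.164, 0.0640 and 0 FPKM in Leaf. The copy was thus nearly confined to Anther, and its 3 Ovule values lay above the 3 Leaf values, on few reads.

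The B-genome ASY1 copy (BniB009412) had 39.3 FPKM in anther-2, 14.9 in anther-1 and 17.7 in anther-3. In Ovule it had 6.31, 7.68 and 5.83 FPKM, and in Leaf 0.320, 0.312 and 0.339 FPKM. Unlike the A-genome copy, it was found in Ovule well above 1 FPKM. The difference between Ovule and Leaf was 3.98 ± 0.32 on the log2(FPKM + 0.1) scale (SE, limma adjusted p = 4.6e-06, n = 3 each), while that of the A-genome copy was 2.27 ± 0.50 (SE, limma adjusted p = 0.0027). The call of the A-genome copy was lost with a pseudocount of 1 and with limma voom on reads.

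ZYP1a encodes the transverse filament of the synaptonemal complex, which joins paired chromosomes. Its copy Bra003654 had 27.4 FPKM in anther-2, 9.947 in anther-1 and 10.0004 in anther-3, with 1.45, 1.32 and 1.21 FPKM in Ovule and 0.387, 0.206 and 0.186 FPKM in Leaf. The copy Bra035016 had 22.6 FPKM in anther-2, 9.79 in anther-1 and 11.3 in anther-3, with 1.22, 2.93 and 2.03 FPKM in Ovule and 0.112, 0.0875 and 0 FPKM in Leaf. Both were low in Ovule and lower in Leaf, with no overlap of the libraries. The Ovule against Leaf difference was 2.02 ± 0.40 for Bra003654 (SE, limma adjusted p = 0.0015) and 3.69 ± 0.45 for Bra035016 (SE, limma adjusted p = 5.9e-05). The call of Bra003654 was lost under the same pair of alternatives as that of Bra004222.

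PRD3 is needed to make the DNA double-strand breaks that start recombination. Its C-genome copy (Bol007924) had 20.8 FPKM in anther-2, 6.40 in anther-1 and 8.89 in anther-3. In Ovule it had 7.83, 8.68 and 7.89 FPKM, between or close to the values of the lower Anther libraries, and in Leaf 0.143, 0.168 and 0 FPKM. The Ovule against Leaf difference was 5.46 ± 0.48 (SE, limma adjusted p = 7e-06). PRD3 was the only one of the 6 whose Ovule level reached that of an Anther library.

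The sixth is a copy of TDF1, a transcription factor of the early tapetum. The C-genome copy (Bol042967) had 28.5 FPKM in anther-2, 14.2 in anther-1 and 13.4 in anther-3, was listed at 0 in the 3 Ovule libraries, and had 1 read in 1 Leaf library. The Ovule against Leaf difference of −0.34 ± 0.40 was not called (SE, limma adjusted p = 0.48). The other copies of TDF1 were also highest in anther-2 but fell outside the first 200, at rank 274 for BniB025201 (32.0 FPKM in anther-2, 13.3 in anther-1 and 17.6 in anther-3) and rank 362 for Bra025337 (55.9, 32.3 and 26.7).

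**Figure D2:**
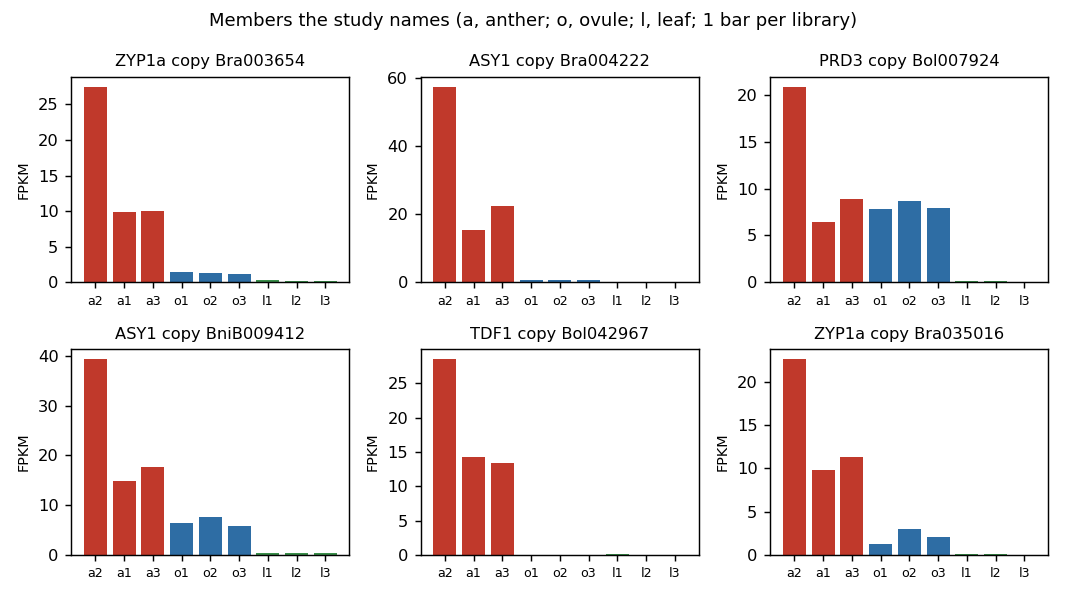
FPKM of the 6 members that the study names, with 1 bar per library and each panel on its own axis from 0, in the order anther-2, anther-1, anther-3, Ovule 1 to 3 and Leaf 1 to 3. Anther-2 is the highest bar in each panel, and Ovule comes near the lower Anther bars for PRD3 (7.83 to 8.68 FPKM in Ovule).

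Among the members without a name, Bra024931 had the largest ratio, with 37.1 FPKM in anther-2, 0.437 in anther-1 and 0.428 in anther-3. These are 252, 3 and 3 reads, so the peak was in that 1 library. In Ovule it had 0.286, 0.432 and 0.881 FPKM, and it was at 0 in Leaf. Next came Bol007913, with 73.0 FPKM in anther-2, 4.96 in anther-1 and 2.57 in anther-3. Its Ovule values of 13.9, 8.35 and 14.4 FPKM were above those of the 2 lower Anther libraries, and it was at 0 in the 3 Leaf libraries. Against a floor of 3 reads per Leaf library, its mean Ovule level was at least 17.3-fold higher (limma adjusted p = 0.00018, and 0.085 with limma voom on reads). Both genes are short, at 450 coding bases.

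The members of highest level were Bol029429 and BniB030065. Bol029429 had 2961 FPKM in anther-2, 1508 in anther-1 and 1439 in anther-3, and 1, 0 and 2 reads in the Ovule libraries. BniB030065 had 2000.7 FPKM in anther-2, 1000.3 in anther-1 and 946.7 in anther-3, and 0, 1 and 2 reads in Ovule. Neither gene had a read in Leaf. These genes were abundant in all 3 Anther libraries and close to 0 elsewhere.

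At a mean of at least 1 FPKM, 126 of the 200 members were found in Ovule and 80 in Leaf. Of these, 78 members (39.0%) were found in both, 48 (24.0%) in Ovule without Leaf and 2 (1.0%) in Leaf without Ovule, and 72 (36.0%) were found in neither. Among the 22093 other genes kept, 90.2% were found in both, 4.35% in Ovule without Leaf, 0.453% in Leaf without Ovule and 5.05% in neither. The members were thus found in Anther alone more often than the other genes of like Anther level. The median of the gene means was 17.9 FPKM in Anther for the members and 19.6 for the others, while in Ovule it was 3.88 for the members and 18.5 for the others, and in Leaf 0.266 for the members and 11.1 for the others.

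The 72 members found in neither tissue had the highest median in anther-2, at 39.5 FPKM, with 11.0 in anther-1 and 16.8 in anther-3. Of these, 20 were listed at 0 in all 6 Ovule and Leaf libraries. The 48 members found in Ovule without Leaf had a median of 28.05 FPKM in anther-2, and 5.75, 7.44 and 6.65 FPKM in the Ovule libraries. The 78 members found in both had 25.5 FPKM in anther-2, 12.7, 11.1 and 10.4 FPKM in Ovule and 4.75, 4.82 and 4.72 FPKM in Leaf. In that last group the Ovule medians lay near those of anther-1 (11.0) and anther-3 (12.1).

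The mean Ovule level of a member was above its anther-2 level in 14 members (7.0%), against 45.8% of the other genes kept. It was below both anther-1 and anther-3 in 145 members (72.5%), against 41.7% of the others. The mean Leaf level was above the anther-2 level in 5 members (2.5%), against 20.3% of the others. The ranking used the Anther values that enter each of these shares, so they are partly fixed by it and only describe the set.

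Ovule was compared with Leaf by limma on log2(FPKM + 0.1) over 75038 genes, and a gene was called when it changed at least 2-fold with an adjusted p of at most 0.05. Of the 198 members tested, 95 (48.0%) were higher in Ovule, where 36.8% of all genes tested were called, and 8 (4.04%) were higher in Leaf, where 14.8% of all genes were. The other 95 were not called, and 2 members, Bra024931 among them, did not reach 0.5 FPKM in 3 libraries and were not tested. The share higher in Ovule was 40.0% among the other genes kept, and the share higher in Leaf 9.09%. The median difference was 1.12 on the log2 scale for the members, 0.80 for the other genes kept and 0.66 for all genes. The 95 members higher in Ovule had differences of 1.104 to 10.611, with a median of 3.31. They comprised all 48 members found in Ovule without Leaf, 36 found in both and 11 of the low group found in neither. Fitted on the Ovule and Leaf libraries alone, 94 members (47.5%) were called toward Ovule and 8 (4.04%) toward Leaf. In that fit 35.9% of all genes were called toward Ovule and 14.6% toward Leaf, and of the other genes kept 39.8% and 9.07%.

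These counts depended on the scale set between the tissues. With rescaling by median-of-ratios factors, the median of all genes moved to 0.08 and that of the members to 0.71, with 80 members (40.4%) called toward Ovule and 13 (6.57%) toward Leaf. On that scale 21.0% of all genes were called toward Ovule and 21.5% toward Leaf, and of the other genes kept 18.3% and 15.1%. Calls toward Ovule were 71.4% of the calls over all genes as deposited and 49.4% after the rescaling. The median of the members lay above that of all genes on both scales. With limma voom on the recovered reads, 58 members (29.3%) were called toward Ovule and 9 (4.55%) toward Leaf. By voom 18.8% of all genes were called toward Ovule and 21.8% toward Leaf, and of the other genes kept 16.5% and 15.0%.

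The members with the largest difference toward Ovule were BniB035255 and Bra005385. BniB035255 had 110.97 FPKM in anther-2, 19.0 in anther-1 and 57.2 in anther-3, and 78.4, 258 and 189 FPKM in Ovule, with no read in Leaf. Against a floor of 3 reads per Leaf library, its mean Ovule level was at least 789-fold higher (limma adjusted p = 5.2e-07). Ovule-2 and ovule-3 were thus above anther-2, and ovule-1 lay between anther-3 and anther-2.

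Bra005385 had 84.2 FPKM in anther-2, 21.2 in anther-1 and 44.5 in anther-3, and 87.3, 295 and 352 FPKM in Ovule. All 3 Ovule libraries were thus above anther-2. It had 1 read over the 3 Leaf libraries. The ratio of the means of Ovule and Leaf was 1972, with a counting interval of 354 to 77878 (95%, exact Poisson on the Leaf read; limma adjusted p = 2.3e-06). For both genes ovule-1 was the lowest Ovule library. Without these 2 members the summed level of the set in Ovule was 1855 ± 48.3 FPKM, against 2275 ± 174 with them (SD, n = 3).

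The 8 members higher in Leaf had differences of −4.18 to −1.08. Bol040764 had 19.1 FPKM in anther-2, 7.54 in anther-1 and 10.1 in anther-3, with 2.36, 1.39 and 1.99 FPKM in Ovule and 37.7, 33.6 and 35.6 FPKM in Leaf (log2 difference −4.18 ± 0.31, SE, limma adjusted p = 2.6e-06). BniB023446 had 16.0 FPKM in anther-2, 8.40 in anther-1 and 7.82 in anther-3, with 0.138, 0.208 and 0.602 FPKM in Ovule and 1.95, 3.09 and 3.35 FPKM in Leaf (log2 difference −2.92 ± 0.44, SE, limma adjusted p = 0.00026). The first of these was higher in every Leaf library than in anther-2. One C-genome member, singled out after its values were seen, reached 424, 454 and 438 FPKM in Leaf with 22.1 FPKM in anther-2. Without it the summed level of the set in Leaf was 686 ± 7.59 FPKM, against 1125 ± 21.7 with it (SD, n = 3).

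**Figure D3:**
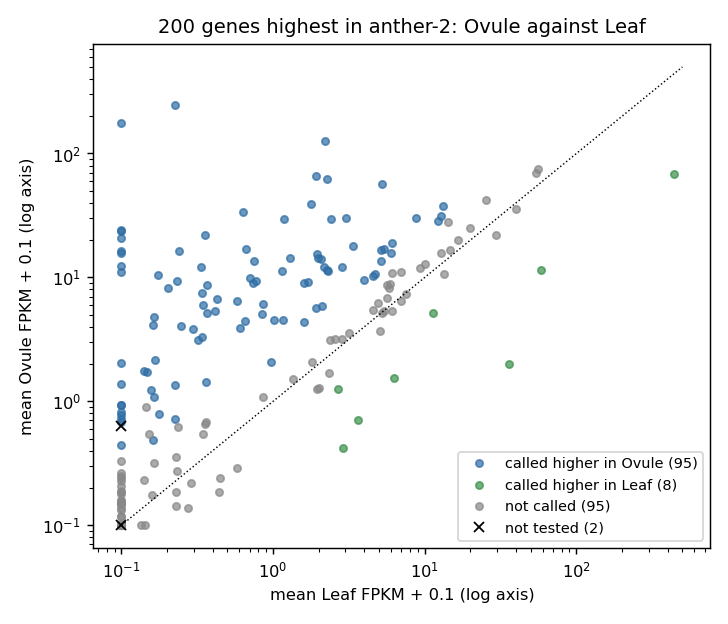
Mean Ovule FPKM against mean Leaf FPKM of each member, with 0.1 added, on log axes; colours give the limma call and the dotted line marks equal levels. The 95 members called higher in Ovule reach down to 0 in Leaf, 8 are called higher in Leaf, 95 are not called, and 2 crosses were not tested.

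The ranking treats anther-1 and anther-3 alike, yet the members were unequal between them. Anther-3 was above anther-1 in 137 of the 200 members (68.5%), against 47.4% of the other genes kept. Most of these differences were small, since the median ratio of anther-3 to anther-1 was 1.08 in the members and 0.986 in the others. A ratio of at least 2 was found in 26 members (13.0%), against 2.29% of the others, and a ratio of at least 2 toward anther-1 in 1 member. Their medians were 69.2 FPKM in anther-2, 4.90 in anther-1 and 25.1 in anther-3. Of these 26 members, 18 were found in neither Ovule nor Leaf.

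The other 174 members, which hold all 6 genes named by the study, had medians of 28.4 FPKM in anther-2, 11.3 in anther-1 and 12.3 in anther-3. They were found in the other organs more often, with medians of 4.51, 4.73 and 4.06 FPKM in Ovule and 0.462, 0.628 and 0.548 FPKM in Leaf, against 0.117, 0.257 and 0.234 FPKM in Ovule and 0 in Leaf for the 26. The member with the largest anther-3 to anther-1 ratio, a B-genome gene singled out after its values were seen, had 56.6 FPKM in anther-2, 0.463 in anther-1 and 19.2 in anther-3, and no read in Ovule or Leaf.

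**Figure D4:**
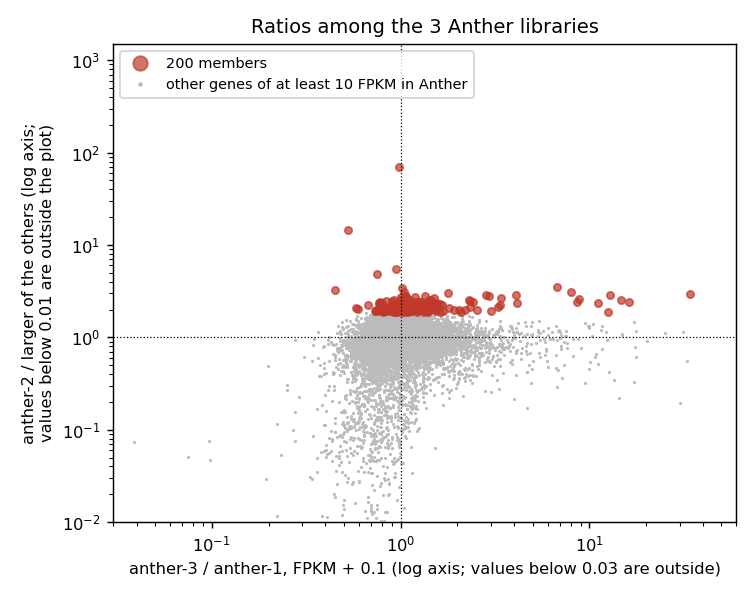
For each gene of at least 10 FPKM in Anther, the ratio of anther-3 to anther-1 (horizontal) against the ratio of anther-2 to the larger of the others (vertical), both with 0.1 FPKM added, on log axes. The members lie above 1.89 on the vertical axis by their choice, and 26 of them lie at or beyond 2 on the horizontal axis.

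Genes of known anther stage show what else was high or low in anther-2. The study names by identifier genes of these steps, which it chose on these same libraries, so the lists are not independent of the data. Of the 37 meiosis genes, 35 were highest in anther-2 and 1 was lowest there. Their summed level was 369.7 FPKM in anther-2, 136.3 in anther-1 and 156.6 in anther-3. Only 5 of the 37 are members, since the other 32 had a mean below 10 FPKM in Anther. Those 32 had a median ratio of 2.00, and 30 of them were highest in anther-2. For comparison, anther-2 was the highest library for 37.3% of the 96286 genes above 0 in Anther, with a median ratio of 0.863. Among the genes of at least 10 FPKM in Anther the share was 53.4%, with a median ratio of 1.02.

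Within meiosis, the ratio differed by role. Axis and synapsis genes had a median ratio of 2.40 and summed to 170.1 FPKM in anther-2, 55.1 in anther-1 and 69.8 in anther-3. Class I crossover genes, which promote the interfering crossovers, had 2.58 and 108, 33.2 and 39.5 FPKM. Among them the 7 copies of HEI10, a ligase that marks crossover sites, summed to 58.9 FPKM in anther-2, 19.9 in anther-1 and 19.7 in anther-3. The break-forming genes had a median ratio of 1.70. Genes that limit crossovers had 1.24, and the helicase gene RECQ4A was level at 6.29, 6.18 and 6.15 FPKM.

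The tapetum regulators were arranged by their place in the known order. The 3 copies of TDF1 summed to 116 FPKM in anther-2, 59.8 in anther-1 and 57.7 in anther-3. AMS summed to 1409, 1439 and 1115 FPKM, and MYB80 to 349, 352 and 420 FPKM, with a median ratio of 0.91 over the 12 copies. TDF1 was thus highest in anther-2, whereas AMS and MYB80 were close to level among the libraries, and of their 12 copies 5 were highest and 4 lowest in anther-2.

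The genes of sporopollenin synthesis and wall export were low in anther-2. Of 36 such genes, 32 were lowest in anther-2 and 3 highest, and all 36 had at least 10 FPKM in Anther without one being a member. Of all genes kept, 24.1% were lowest in anther-2. The 36 genes summed to 6699 FPKM in anther-2, 12884 in anther-1 and 14126 in anther-3. The steepest was MS2, a fatty acyl reductase of the pollen wall, at 471 FPKM in anther-2, 2962 in anther-1 and 3267 in anther-3. CYP703A2, which hydroxylates fatty acids for sporopollenin, followed at 219, 1173 and 1207 FPKM. Other genes were nearer to level. The ratio of summed levels, anther-2 to the larger other library, was 0.80 for ACOS5, 0.76 for LAP5 and 0.71 for TKPR1. For TKPR2 it was 0.71, against 0.14 for MS2 and 0.18 for CYP703A2. Of the 8 LAP5 copies, 2 were highest in anther-2 and 5 lowest. The copies of the reductase gene TKPR2 also differed. BniB031910 was highest in anther-2, at 472 FPKM with 329 in anther-1 and 403 in anther-3, whereas the other 3 copies were lowest there, with ratios of 0.25 to 0.54.

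**Figure D5:**
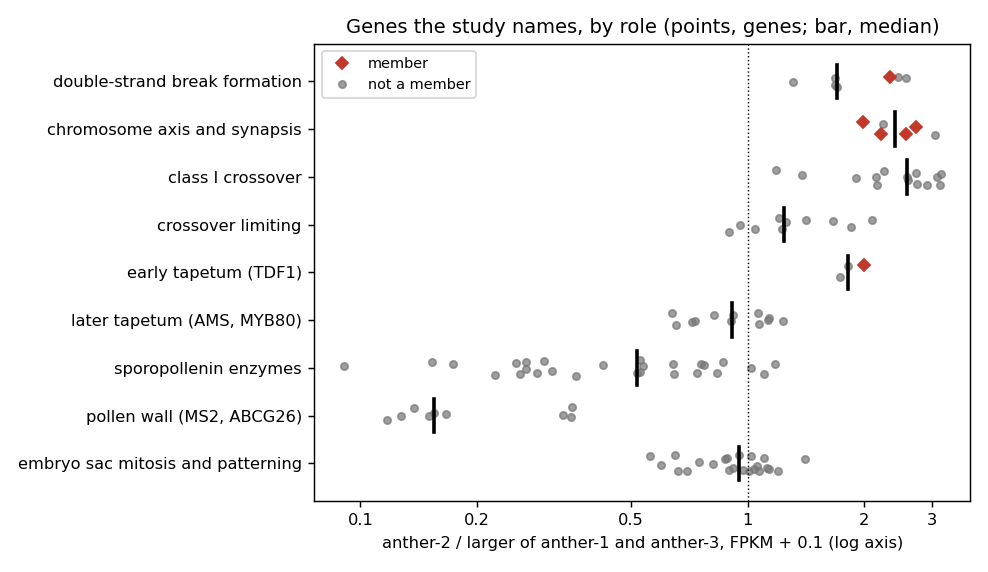
Ratio of anther-2 to the larger of the other Anther libraries, with 0.1 FPKM added, on a log axis, for the genes the study names, with 1 point per gene, members marked and a bar at the median of each role. Axis and synapsis genes (2.40) and class I crossover genes (2.58) lie above 1, AMS and MYB80 (0.91) near 1, and sporopollenin (0.52) and MS2 with ABCG26 (0.16) below 1.

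In anther-2, genes of meiosis and TDF1 were thus high and genes of wall formation low. The genes lowest in anther-2 were taken in the mirrored way for comparison, among the same genes kept. They are the 200 with the largest ratio of the smaller of anther-1 and anther-3 to anther-2, with 0.1 FPKM added to both. They had medians of 0.254 FPKM in anther-2, 57.5 in anther-1 and 42.6 in anther-3. Of these, 57.5% were found in neither Ovule nor Leaf, 30.5% in Ovule without Leaf and 8.0% in both. Anther-3 was above anther-1 in 15 of them (7.5%). Among the members, 39.0% were found in both and 36.0% in neither. In both sets the share found in neither was above the 5.05% of the other genes kept, so it was not particular to the members. Both sets held more genes found in Ovule without Leaf than in Leaf without Ovule. So did the other genes kept, at 4.35% against 0.453%.

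Whether anther-2 held younger anthers cannot be told apart from other ways in which its RNA could differ, since the labels give no stage for a single library. Levels of genes preferential to the other organs are given as a description. The 100 genes most preferential to Leaf summed to 39.4 FPKM in anther-2, 42.8 in anther-1 and 44.7 in anther-3, and the 100 most preferential to Ovule to 21.6, 57.3 and 42.2 FPKM. Neither list was higher in anther-2 than in the other Anther libraries. Both lists were set from these same data, by the ratio of the mean in 1 tissue to the larger mean of the others. The Anther mean in that ratio includes anther-2, so low Anther levels were fixed in advance. Whether anther-2 held material from other organs was not tested. In the other direction, the 36 sporopollenin and wall genes summed to 39.9, 64.4 and 136 FPKM in the Ovule libraries, at most 1.21% of their Anther mean, and were highest in ovule-3. Without ovule-3, 94 members were called higher in Ovule and 7 higher in Leaf.

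The members were spread over the subgenomes much as the other genes kept. The A-genome held 78 members (39.0%), and the B-genome 62 (31.0%), against 37.7% and 31.9% of the others, and the C-genome held the remaining 60. The median coding length was 832.5 bases in the members and 885 in the others. In anther-2 the members had 101 to 14373 reads, with a median of 449, so that the anther-2 levels rest on well over the floor of 3 reads. Reads that match related copies on several subgenomes cannot be placed on a single copy with certainty. The level of a single copy is therefore less certain than that of a gene over its copies.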

How the data were processed

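Published RNA-Seq data of 3 Anther, 3 Ovule and 3 Leaf libraries were used. The authors deposited FPKM, made from filtered reads by alignment (HISAT2 2.1.0) to a reference that joined the 3 diploid Brassica genomes and by counting per gene (HTSeq 0.6.0). StringTie 1.3.2 is named in the labels without a role. No scaling between libraries is stated. Whole reads were recovered from the steps in FPKM for all 100804 genes, within 0.01 read, and used for depth and 1 alternative.

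Ovule was compared with Leaf with limma 3.58.1 under R 4.3.3. The model was fitted to log2(FPKM + 0.1) of all 9 libraries, for genes of at least 0.5 FPKM in at least 3 libraries. Other steps used Python 3.11.15, pandas 2.3.3, numpy 2.4.6 and matplotlib 3.10.9. The fit and the recovery were tested on simulated data. The libraries of a tissue are described as biological replicates. The p-values measure the spread between libraries of a tissue, pooled over Anther, Ovule and Leaf, although that spread differed between the tissues. In Leaf the spread was little above counting error. Whether the Leaf libraries hold the spread between plants was not tested. Counting intervals and floors cover counting error only.

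Named genes are members the study names, its other genes by symbol, the 2 members of largest ratio, of highest anther-2 level and of largest Ovule against Leaf difference each way, and genes at the edge of the set. The members and lists were chosen with earlier results of these data known. Alternatives were pseudocounts, filters, scaling, the libraries used, a replicate block, voom and, chosen after seeing the data, leaving out libraries in the ranking, the levels and the stage lists. Genome sequences were not used.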

Additional observations from a re-analysis of the deposited data

How the results depend on the processing

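Members called higher in Ovule numbered 95 as reported and 80 to 102 under the other pseudocounts, filters, scaling and choice of libraries, but 58 with limma voom on recovered reads. Those higher in Leaf numbered 8, and 13 with median-of-ratios rescaling. Leaving out 1 library gave 90 to 96 and 7 to 8. Over all genes, 27612 were called toward Ovule and 11071 toward Leaf as deposited, 15757 and 16125 with the rescaling, and 14109 and 16328 with voom. Correlations of deviations from the tissue means ran from −0.095 to 0.161 between same-numbered libraries of different tissues. Between libraries of different number they ran from −0.122 to 0.15. These values cannot show whether same-numbered samples came from the same plants. The replicate block gave 94 and 8. Bol029429 (1.71) turned to −0.059 ± 1.76 with voom (SE, limma adjusted p = 0.98), on 3 Ovule reads, and its call was lost in 10 of the other 16 alternatives, among them the replicate block (limma adjusted p = 0.0529).

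Membership moved with the minimum Anther level and with the libraries, most of all without anther-3. Of the 200 genes, 101 were shared at a minimum mean of 5 FPKM, 86 at 20 FPKM, and 56 (without anther-3) to 99 (without anther-1) when a library was left out. The other settings shared 151 to 198. Members found in Ovule (126) ranged from 110 to 142 and in Leaf (80) from 56 to 97 over all settings. The median ratio of the break-forming genes (1.70) was 1.57 with a pseudocount of 1, 1.67 with rescaling and 2.11 to 2.36 without anther-1 or anther-3. That of class I crossover genes was 2.15 with a pseudocount of 1 and 2.65 to 3.40 without one of those libraries. Under the same omission the ratio was 2.40 to 3.06 for axis and synapsis, 1.24 to 1.52 for crossover limiting, 0.996 to 1.06 for AMS with MYB80 (0.883 with rescaling) and 0.155 to 0.175 for MS2 with ABCG26. Values in 1 library have no replicate, and the cause of these changes was not tested.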
